A study of Mus musculus with 18 samples.

Results

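Inflammasomes are protein assemblies that form in the cytosol of innate immune cells. A sensor recognises a microbial product or a sign of cell damage and, often through the adaptor ASC, gathers caspase-1. Caspase-1 then matures IL-1β and IL-18 and cuts gasdermin D, which opens pores in the plasma membrane and ends in the lytic death called pyroptosis. In a noncanonical branch, mouse caspase-11 (the product of Casp4) senses lipopolysaccharide and cuts gasdermin D directly. Neutrophils, monocytes and macrophages are well known carriers of the pathway in inflamed tissue.

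The 9 genes described here were chosen by name from the 49585 genes of the count table, and all 9 were found. They comprised the sensors Nlrp3, Nlrp1b, Nlrc4, Aim2 and Mefv (which encodes pyrin), the adaptor Pycard (ASC), the inflammatory caspases Casp1 and Casp4, and the pore former Gsdmd. They were followed in 18 libraries of bulk RNA-Seq, 3 in each of 6 groups, of viable CD45+ leukocytes sorted from Kaede mice, whose photoconvertible protein turns from green to red under UV light so that cells marked in a tissue can be traced. Inflamed mice had received OT-II T cells polarized to Th1, were immunized with 100 µg OVA in CFA, and were challenged with 100 µg heat-aggregated ovalbumin (HAO) in the footpad (joint) or ear pinna (skin). Red cells were taken either from the exposed tissue (nonmigrated) or from its draining lymph node (migrated). The mice were 6 to 10 weeks old, light was given on day 3, cells were collected 24 hours later, and a pool of 8 to 18 mice per sample was described for the inflamed groups. The 2 further groups were labelled as steady-state cells that had reached the lymph node from joint or ear. The titles of these libraries carried PBS for the joint and Naive for the skin, so that site and this difference in handling cannot be told apart between them. The paper's methods give PBS as the alternative footpad challenge, after the same T cell transfer and immunization as for HAO. The labels do not state whether the joint steady-state mice had received these. The joint titles also carried the letters KG, which the labels do not explain. The paper calls unconverted cells Kaede green, and whether KG stands for this is not stated. For both steady-state groups, arrival from the tissue rests on the source label alone.

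Library totals spanned 35554698 to 43814403 counts in the inflamed joint groups and 19239531 to 22528895 in the inflamed skin groups. Depth and site cannot be told apart there. The paper describes the inflamed skin profiles as a second data set, so data set and site cannot be told apart either. Whether the skin steady-state libraries belonged to it is not stated. Steady-state libraries held 37500168 to 42938378 counts (joint) and 28577566 to 40055171 (skin). Skin migrated libraries held 19239531 to 22378238, so that depth and steady state cannot be told apart in the skin. The leukocyte gene Ptprc (CD45) passed in none of the comparisons between groups. Skin nonmigrated replicate 3 stood apart from its group, with 12840 summed CPM (counts scaled to library size) over 10 monocyte and macrophage markers against 5198 and 4007, and 389.6 over 5 markers of mature migratory dendritic cells against 1125 and 1710. Joint migrated replicate 1 had 2684 summed CPM for the latter list against 5993 and 7067. At steady state this list summed to 461.4 to 771.7 CPM (joint) and 466.8 to 577.5 CPM (skin), below all migrated libraries. Most of these steady-state sums was Ccr7, with means of 609.4 (joint) and 493.6 CPM (skin). Fscn1 had means of 2.763 and 5.233 CPM there, against 2419 and 3224 CPM in cells migrated from joint and skin. Cacnb3 and Ccl22 had means of 0.5987 to 4.798 CPM at steady state and 635.9 to 1475 CPM in migrated cells. B cell markers summed to 3724 to 4024 (joint) and 2413 to 3247 CPM (skin) at steady state. In migrated cells they summed to 630.3 to 878.9 and 106 to 189.9 CPM. The origin of the steady-state cells was not tested. In bulk samples, fewer cells of a type and less RNA per cell cannot be told apart.

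The levels of the 9 genes by library show a marked contrast among the sensors. Nlrp3, which responds to potassium loss and many damage signals, measured 187.2, 194.8 and 338.9 CPM in the joint nonmigrated libraries. In skin nonmigrated cells it measured 309.3, 324.4 and 197.2 CPM. The nonmigrated ranges overlapped between sites and lay above every lymph node library. Migrated cells held 2.156, 4.018 and 15.37 CPM from the joint and 11.97, 2.897 and 4.743 CPM from the skin. Steady-state joint libraries held 9.611, 18.41 and 15.16 CPM, whereas those of the skin held 0.7627, 0.7643 and 0.7028 CPM. The skin steady-state libraries were the lowest of all, and the spread among the migrated libraries was wide.

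**Figure D1:**
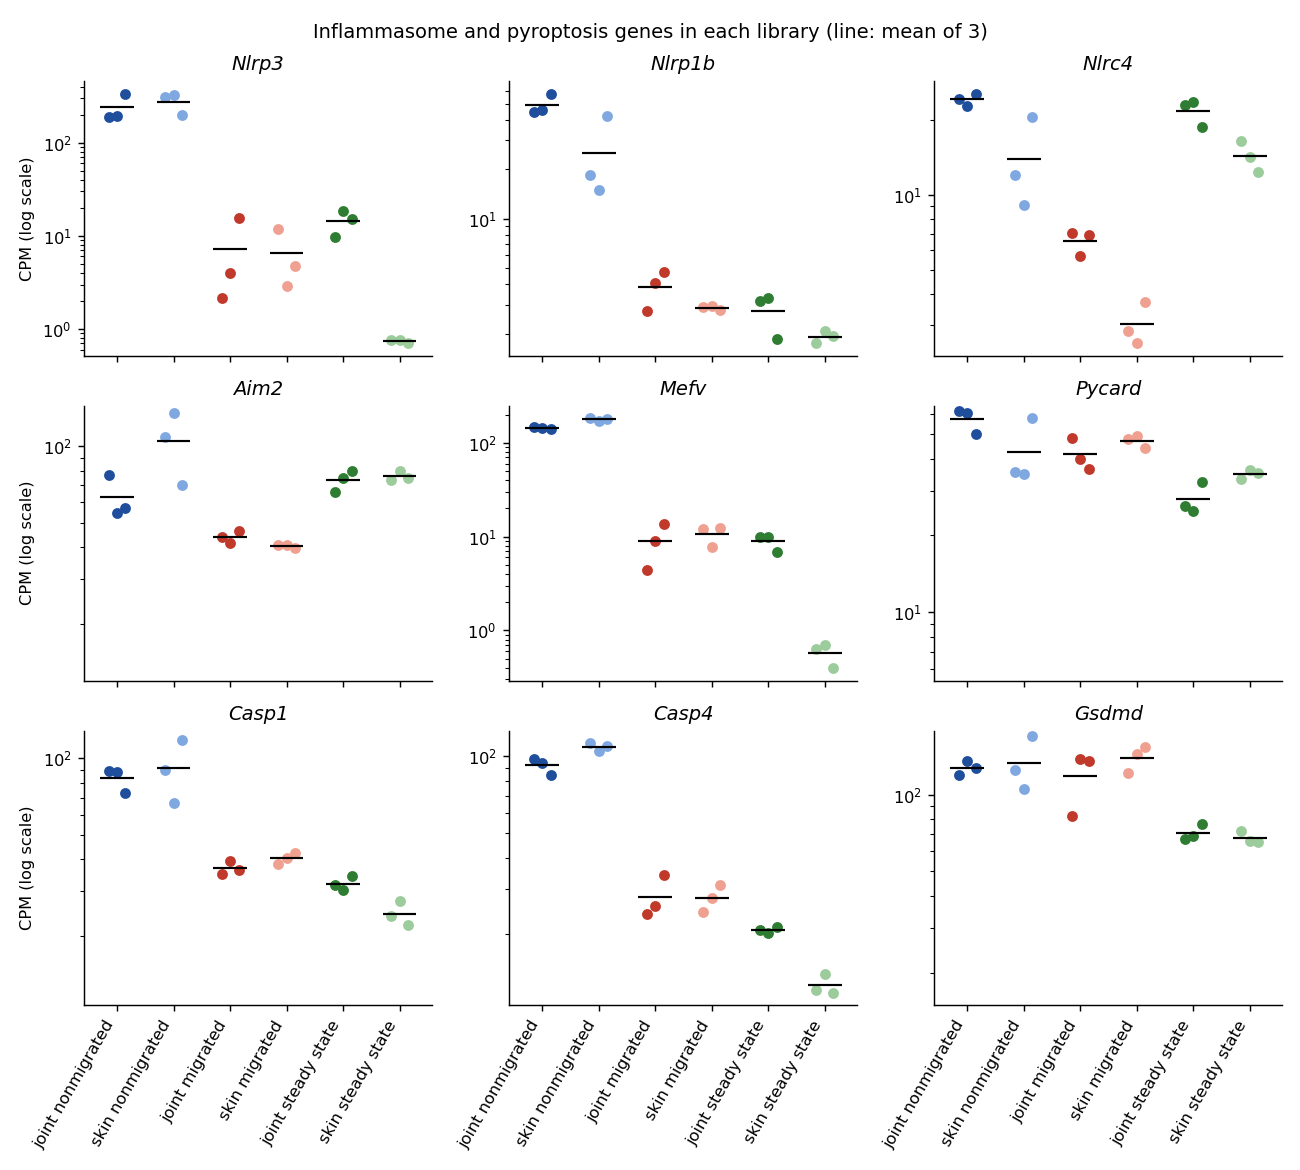
CPM (log scale) of the 9 genes in each of the 18 libraries, by group, with a line at the mean of 3. Nlrp3, Mefv, Casp1 and Casp4 are highest in the nonmigrated groups, whereas the Gsdmd libraries of the migrated groups reach 154.3 CPM and overlap those of the nonmigrated groups.

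Mefv, the pyrin gene, whose product reports the loss of RhoA activity, had the smallest spread of the sensors relative to its mean in nonmigrated cells. It measured 147.7, 143.4 and 140.5 CPM in the joint and 182.3, 173.1 and 181.5 CPM in the skin. The migrated libraries held 4.414, 9.041 and 13.79 CPM from the joint and 11.92, 7.692 and 12.23 CPM from the skin. Joint steady-state libraries lay in the same range, at 9.967, 9.843 and 6.879 CPM. Those of the skin steady state held 0.6281, 0.6948 and 0.3972 CPM, below every other library.

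Nlrp1b, a sensor of protease activity, held 44.65, 45.55 and 57.62 CPM in joint nonmigrated and 18.42, 14.97 and 41.95 CPM in skin nonmigrated cells. The high skin value belonged to replicate 3. In the 12 lymph node libraries it lay between 1.75 and 4.76 CPM, with neighbouring groups overlapping. Nlrc4, which assembles with NAIP receptors of flagellin and bacterial secretion proteins, had another order. Its joint steady-state libraries (22.83, 23.66 and 18.62 CPM) overlapped the joint nonmigrated ones (24.3, 22.79 and 25.47 CPM), and the 2 migrated groups were the lowest, at 7.063, 5.677 and 6.882 CPM from the joint and 2.841, 2.547 and 3.723 CPM from the skin. Aim2, a sensor of cytosolic DNA, varied least of the sensors, from 39.63 CPM in a skin migrated library to 135.1 CPM in a skin nonmigrated library.

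Downstream of the sensors, Pycard lay between 25.01 and 61.75 CPM over all 18 libraries. Of its exonic bases 12.76% are shared with Gm45205 on the opposite strand, and the strandedness of the libraries is not given in the sources used here, although the counter was run under default settings, which use strand. Casp1 held 72.65 to 88.81 CPM in joint nonmigrated and 66.53 to 117.8 CPM in skin nonmigrated cells, above the lymph node range of 22.09 to 42.37 CPM. Casp4 was as clearly divided, with 84.53 to 112.6 CPM in the nonmigrated libraries and 11.76 to 34.22 CPM in the nodes. Gsdmd had a different order, with 82.19 to 170.1 CPM across the 4 inflamed groups and 65.45 to 76.93 CPM at steady state.

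Scaled by exonic length, as RPKM (CPM per kilobase of exons), Nlrp3 (59.2 ± 21.1 RPKM, SD, n = 3), Casp1 (55.6 ± 6.13) and Gsdmd (53.7 ± 3.25) were the most abundant of the 9 in joint nonmigrated cells, with differences smaller than the SD of Nlrp3. Mefv followed at 44.3 ± 1.11 RPKM, also within the SD of the Nlrp3 mean. In skin migrated cells Gsdmd (59.0 ± 6.97 RPKM) and Casp1 (27.0 ± 1.29 RPKM) led, and Nlrp3 stood at 1.61 ± 1.18 RPKM. Nlrp1b was the lowest of the 9 in both migrated groups, at 0.612 ± 0.164 RPKM from the joint and 0.456 ± 0.0124 RPKM from the skin.

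**Figure D2:**
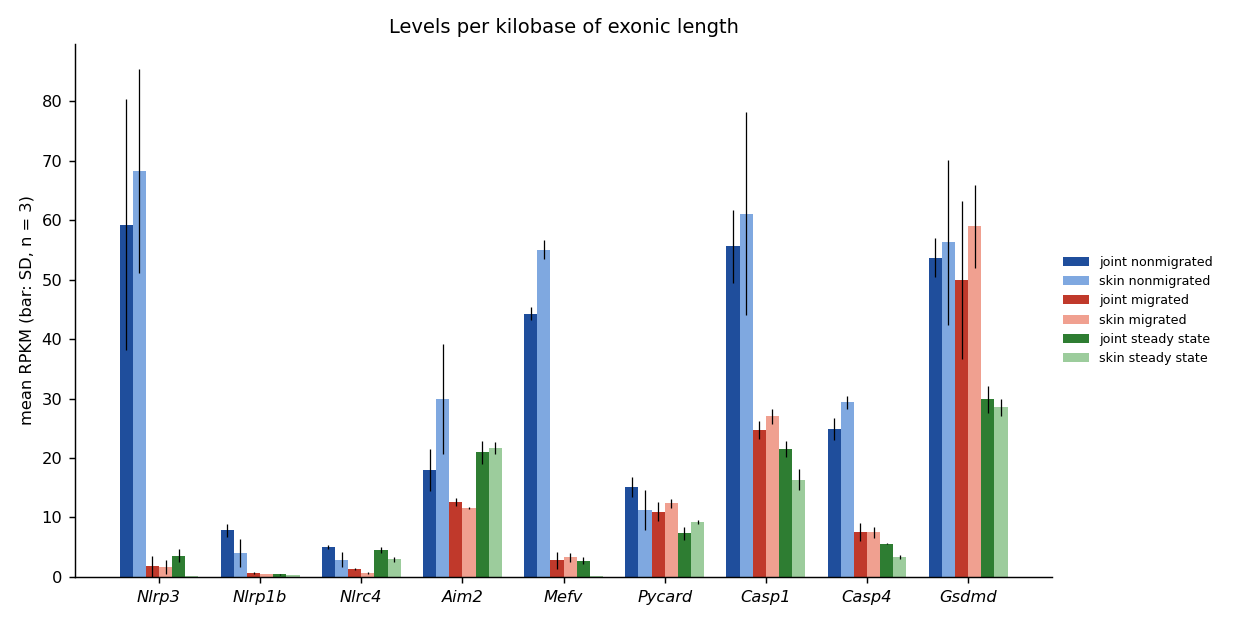
Mean level per kilobase of exonic length (RPKM, with the SD of 3 libraries) for the 9 genes in the 6 groups. Gsdmd has means of 49.95 to 58.95 RPKM in the 4 inflamed groups, and the Nlrp3 and Mefv bars are tallest in the nonmigrated groups.

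The first comparison asked how cells that had left the inflamed joint differed from those that stayed. In the joint, 6 of the 9 genes were lower in migrated cells and none was higher, at an adjusted p below 0.05 and a log2 fold change beyond 1 in size. Of the 16777 genes tested, 18.4% were lower, 16% were higher and 34.3% changed in either direction. The libraries of the groups did not overlap for 8 of the 9 genes, against 65.5% of all genes. The median log2 fold change was -1.72 over the 9 genes and 0.02 over all genes tested. Nlrp3 fell by 5.06 on the log2 scale (SE 0.731, edgeR quasi-likelihood test, adjusted p = 0.00013) and Mefv fell by 3.98 (SE 0.336, edgeR adjusted p = 2.79e-06). Nlrp1b fell by 3.67, Nlrc4 by 1.88, Casp4 by 1.72 and Casp1 by 1.17, with edgeR adjusted p-values from 2.48e-06 to 0.000134.

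Aim2 (log2 fold change -0.52, edgeR adjusted p = 0.048) stayed inside the fold limit, and its libraries did not overlap between groups. Pycard gave -0.46 (edgeR adjusted p = 0.051) and Gsdmd -0.10 (95% interval from -0.56 to 0.35, edgeR adjusted p = 0.701).

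In the skin, 7 of the 9 genes were lower in migrated cells, against 19.7% of all genes, whereas 15.7% of all genes were higher and 35.4% changed in either direction. The libraries did not overlap for 7 of the 9, against 61.6% of all genes. The median was -1.97 over the 9 genes and 0.01 over all genes. Nlrp3 fell by 5.41 (SE 0.752, edgeR adjusted p = 9.8e-05), Mefv by 4.08, Nlrp1b by 3.13, Nlrc4 by 2.19, Casp4 by 1.97 and Aim2 by 1.38 (edgeR adjusted p = 0.000168). Casp1 fell by 1.18 on the log2 scale. Without skin nonmigrated replicate 3 Casp1 was at -0.95, inside the fold limit. Pycard (0.13, edgeR adjusted p = 0.563) and Gsdmd (0.07, edgeR adjusted p = 0.809) did not pass.

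**Figure D3:**
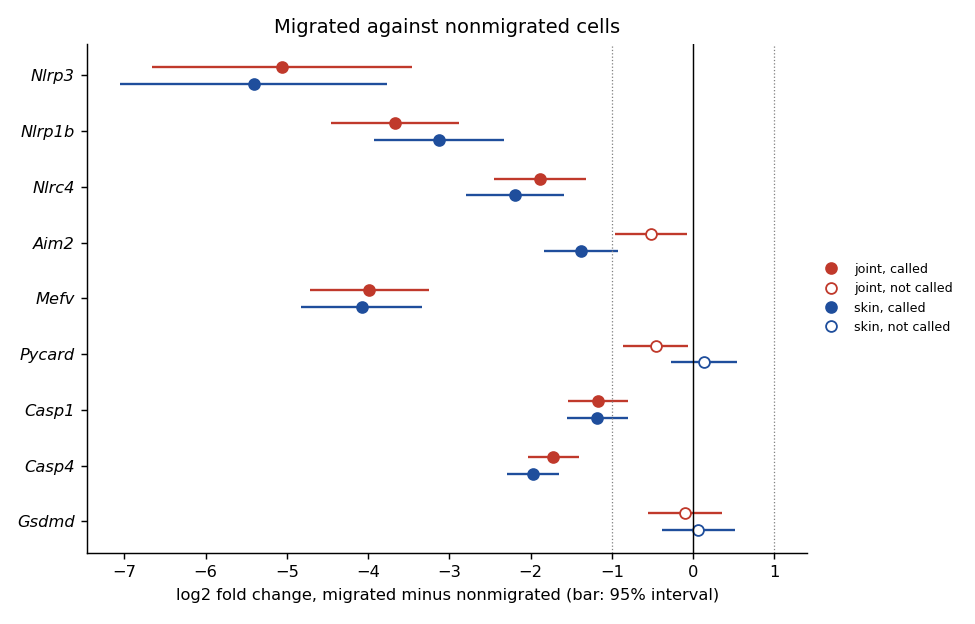
Log2 fold change of the 9 genes, migrated minus nonmigrated, for joint and skin, with 95% intervals. Filled points passed the threshold, dotted lines mark a log2 fold change of 1 in either direction, and Nlrp3 lies farthest left at -5.06 and -5.41.

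Markers of neutrophils moved with these differences. Over 11 neutrophil genes the summed level was 9479 to 30020 CPM in joint nonmigrated and 56.51 to 121.9 CPM in joint migrated cells, with 11 of 11 lower. In the skin it was 1735 to 2909 CPM against 18.68 to 35.41 CPM, with 10 of 11 lower. Monocyte and macrophage markers spanned 18960 to 23980 against 703.8 to 817.7 CPM in the joint and 4007 to 12840 against 757 to 1103 CPM in the skin, with 9 of 10 lower at each site. Their part in the result was not tested.

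The other genes of the pathway were read from lists of 46 genes, of which 38 could be tested. In the joint 21 were lower and 4 higher in migrated cells, with a median of -1.11, and in the skin 24 were lower and 1 higher, with a median of -1.55. All 4 NAIP receptors were lower at both sites, among them Naip2 (-1.60 in the joint, -1.82 in the skin). Reads of the NAIP, Nlrp1 and guanylate-binding protein families can be shared between near-identical copies, and their counts are uncertain to that extent. The caspase-1 substrate Il1b fell by 3.73 in the joint and 4.23 in the skin, and Il18 fell by 2.08 and 3.61. Ninj1, which ruptures the membrane after gasdermin pores open, was lower at both sites (-3.65 and -5.245). The inhibitors of the IL-1 family moved the same way, with Il1rn at -3.46 and -5.39. Serpinb9, an inhibitor of granzyme B, was higher in migrated cells, by 3.32 and 1.40, and Panx1 (1.31) was higher in the joint.

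As a description, promoter windows of 8 of the 9 genes, all but Gsdmd, were read from RefSeq (GRCm38.p6). They comprised 11 windows of 250 bases upstream of a transcript start, and 5 motifs were searched on both strands, as letters: NF-kB (GGGA, then 4 bases of any kind, then CC, found in 17.6% of 32851 windows), PU.1 (GAGGAAGT, 2.44%), AP-1 (TGANTCA, 6.75%), the gamma-activated sequence (TTCNNNGAA, 7.02%) and the interferon-stimulated response element core (GAAA, then 2 bases of any kind, then GAAA, 2.98%). Of these, 4 windows that hold a match are shown, ended before any annotated exon and written along the strand of the gene with the matched letters in capitals. They are Nlrp3 at chr11:59541319-59541567 (plus strand, NF-kB), Casp4 at chr9:5308599-5308827 (plus strand, NF-kB), Nlrp1b at chr11:71230734-71230983 (minus strand, PU.1) and Aim2 at chr1:173420354-173420570 (plus strand, PU.1).
Nlrp3: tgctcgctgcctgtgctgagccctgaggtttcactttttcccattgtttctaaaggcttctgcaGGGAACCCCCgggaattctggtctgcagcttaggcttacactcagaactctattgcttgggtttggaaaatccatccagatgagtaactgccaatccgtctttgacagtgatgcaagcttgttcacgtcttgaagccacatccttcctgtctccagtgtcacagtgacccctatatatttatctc
Casp4: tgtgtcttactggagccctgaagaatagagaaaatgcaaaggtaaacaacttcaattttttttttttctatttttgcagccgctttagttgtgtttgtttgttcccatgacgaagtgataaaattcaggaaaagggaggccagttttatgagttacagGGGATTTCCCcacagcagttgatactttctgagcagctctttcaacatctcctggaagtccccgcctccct
Nlrp1b: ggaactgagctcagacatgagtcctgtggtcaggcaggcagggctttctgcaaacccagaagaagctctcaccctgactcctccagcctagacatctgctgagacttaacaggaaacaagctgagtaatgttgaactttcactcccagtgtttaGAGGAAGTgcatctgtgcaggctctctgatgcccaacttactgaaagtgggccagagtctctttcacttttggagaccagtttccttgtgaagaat
Aim2: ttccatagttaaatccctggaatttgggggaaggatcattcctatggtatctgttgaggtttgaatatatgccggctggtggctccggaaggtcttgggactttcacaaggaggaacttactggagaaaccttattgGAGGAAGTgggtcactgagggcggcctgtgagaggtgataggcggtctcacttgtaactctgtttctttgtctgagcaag
The matches began at -186, -92, -96 and -113 from the transcript start, in that order. Pycard held a PU.1 match at -44, and the windows of Nlrc4, Mefv and Casp1 held none of these letters. The other windows of Nlrp3 (chr11:59542436-59542685) and Nlrp1b (chr11:71201457-71201706) held none either. The other Casp4 window overlapped the one shown and held the same match, at -103. A match describes letters in a window.

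The next question was whether the site of inflammation mattered. Between joint and skin nonmigrated cells, 0 of the 9 genes passed in edgeR, against 14.3% of all genes (5.45% higher and 8.86% lower in the joint), the libraries of 4 did not overlap (37.9% of all genes), and 4 of the 9 had an unadjusted p below 0.05. Aim2 was at -0.74 (edgeR adjusted p = 0.02), Nlrp1b at 0.97 and Nlrc4 at 0.80, joint minus skin. Nlrp1b passed in a fit without a filter on low counts (1.02), and without skin nonmigrated replicate 3 both Nlrp1b (1.56) and Nlrc4 (1.19) passed. Neutrophil markers were higher in the joint for 9 of 11 genes and B cell markers for 5 of 5 (median 5.27). The neutrophil genes were uneven. Csf3r (means of 442.9 CPM in the joint and 518 CPM in the skin) and Cxcr2 (130.1 and 138.1 CPM) overlapped between sites. Ngp (4455 and 20.5 CPM) and Ltf (2675 and 12.46 CPM) differed far more. Lower in the joint were 4 of 4 genes of mature migratory dendritic cells (median -3.09), 5 of 6 T cell genes and 3 of 3 keratinocyte genes. The part of these markers in the site values was not tested. In this comparison all 5 guanylate-binding proteins and IRGB10, which help to expose bacterial lipopolysaccharide to caspase-11, were lower in the joint, including Gbp7 (-1.33), Gbp5 (-2.38), Irgb10 (-2.21) and Gbp2 (-1.81).

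Between joint and skin migrated cells, 0 of the 9 passed in edgeR, against 1.14% of all genes (0.56% higher and 0.578% lower in the joint), the libraries of 2 did not overlap (28.2% of all genes), and 1 of the 9 had an unadjusted p below 0.05. That gene was Nlrc4, whose libraries did not overlap (log2 fold change 1.11, SE 0.268, edgeR adjusted p = 0.0635). DESeq2 called it (adjusted p = 0.00418), as did edgeR on all 18 libraries (adjusted p = 0.0179) and on the compared groups alone (adjusted p = 0.0377). Whether the effect of migration differed between sites was tested with an interaction term, and 0 of the 9 passed in edgeR, against 6.13% of all genes (3.96% above and 2.17% below 0), with 2 of the 9 under an unadjusted p of 0.05. Aim2 gave 0.86 (edgeR adjusted p = 0.0874), and without skin nonmigrated replicate 3 Aim2 (1.08) and Nlrp1b (-1.14) passed.

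The lymph node libraries were used to compare cells labelled as migrated from inflamed tissue with those labelled steady state. For the joint, 1 of the 9 genes was lower than at steady state and none was higher. Of the 17107 genes tested, 7.31% were lower, 16.9% were higher and 24.2% changed in either direction. The libraries did not overlap for 6 of the 9, against 57.5% of all genes. Nlrc4 fell by 1.70 (SE 0.163, edgeR adjusted p = 1.84e-06). The median was 0.23 over the 9 genes and -0.02 over all genes. Nlrp3 was at -0.97 (edgeR adjusted p = 0.185), and without joint migrated replicate 3 it was at -2.18 (edgeR adjusted p = 0.00308). Aim2 (-0.71), Gsdmd (0.77), Pycard (0.62) and Casp4 (0.46) had adjusted p-values below 0.05 in edgeR and stayed inside the fold limit. Of the markers, 11 of 11 neutrophil genes (median -3.68) and 5 of 5 B cell genes were lower than at steady state. Among 10 monocyte and macrophage genes, 3 were higher and 2 lower (median -0.019). The B cell genes had summed levels of 630.3 to 878.9 CPM against 3724 to 4024 CPM. Of the genes of mature migratory dendritic cells, 3 of 4 were higher and 0 lower (median 8.785), a shift also seen in the skin. The part of these markers in the values of the 9 genes was not tested.

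For the skin, 4 of the 9 were higher and 1 was lower than at steady state, against 21.5% and 15% of all genes and 36.5% in either direction. The libraries did not overlap for 9 of the 9, against 71.2% of all genes. Mefv rose by 4.22 (SE 0.403, edgeR adjusted p = 1e-06) and Nlrp3 by 3.16 (SE 0.703, edgeR adjusted p = 0.00147). Casp4 rose by 1.17 and Gsdmd by 1.08, and Gsdmd was at 0.96 without skin migrated replicate 3. Of the markers, 10 of 10 monocyte and macrophage genes (median 2.98) and 4 of 4 genes of mature migratory dendritic cells (median 8.63) were higher, and 5 of 5 B cell genes (median -4.16) were lower. Among 11 neutrophil genes, 2 were higher and 1 lower (median 0.479). The part of these markers in the skin values was not tested. Nlrc4 fell by 2.20 (edgeR adjusted p = 1.84e-07), and Aim2, at -0.88, stayed inside the fold limit. Among the other pathway genes 17 of 36 were higher and 3 lower in the skin, and 11 of 36 were higher and 3 lower in the joint. Il1b rose by 4.25 in the skin and was at -0.18 in the joint.

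**Figure D4:**
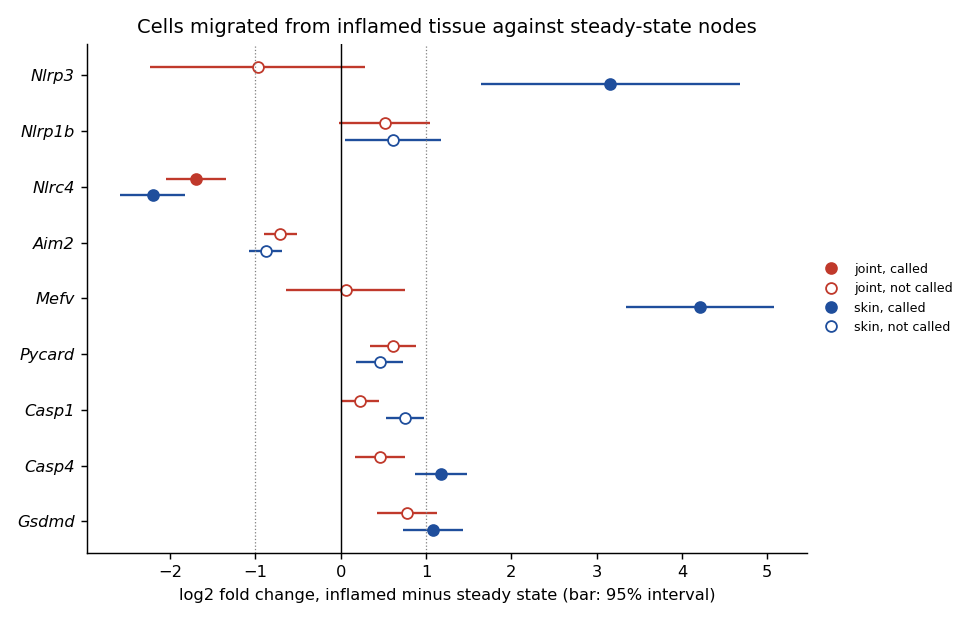
Log2 fold change of the 9 genes, cells migrated from inflamed tissue minus steady state, for joint and skin, with 95% intervals. Nlrp3 (3.16) and Mefv (4.22) stand to the right for the skin, and Nlrc4 lies left at both sites (-1.70 and -2.20).

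The steady-state groups themselves differed in the same pair of sensors. Of the 9 genes, 2 were higher in joint than in skin steady-state libraries, against 3.23% of all genes (3.89% in either direction and 0.655% lower). The libraries did not overlap for 6 of the 9, against 31.1% of all genes. Nlrp3 was higher by 4.26 (SE 0.707, edgeR adjusted p = 0.00202) and Mefv by 3.92 (SE 0.398, edgeR adjusted p = 4.64e-05). The change from steady-state to migrated cells differed between sites for the same pair, against 6.11% of all genes (3.78% below and 2.33% above 0). Joint minus skin, Nlrp3 was at -4.13 (SE 0.916, edgeR adjusted p = 0.0133) and Mefv at -4.15 (SE 0.514, edgeR adjusted p = 0.000367). These comparisons share the steady-state libraries, and between the migrated groups neither gene passed (Nlrp3 0.137, Mefv -0.225, joint minus skin). Il1b (4.70), Il1rn (4.11), Il1r2 (3.00), Nlrp12 (3.44) and Nlrp1a (2.63) were also higher in the joint steady state.

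Beside this, the summed neutrophil markers were 645.4 to 1199 CPM in joint and 16.19 to 25.53 CPM in skin steady-state libraries, with 11 of 11 higher in the joint. Monocyte and macrophage markers were 609.6 to 842 against 202.3 to 248 CPM, with 8 of 10 higher. Their part in the result was not tested.

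**Figure D5:**
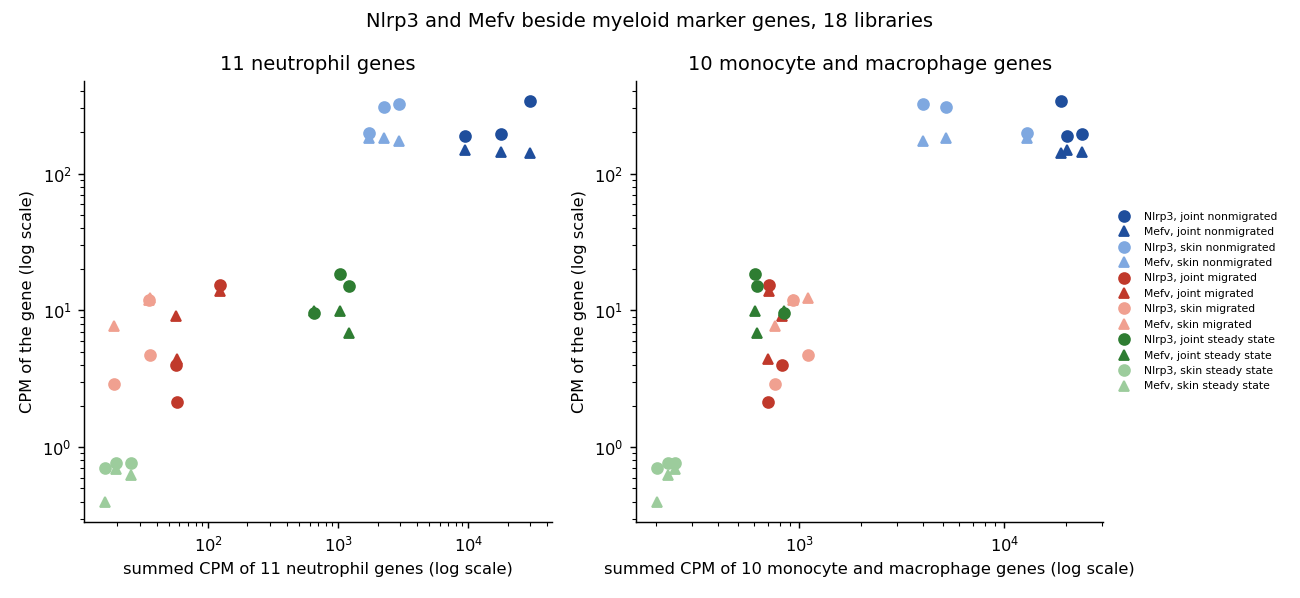
CPM of Nlrp3 (circles) and Mefv (triangles) against the summed CPM of 11 neutrophil genes (left) and 10 monocyte and macrophage genes (right) in the 18 libraries, on log scales. Skin steady-state libraries sit lowest for both genes and for the monocyte and macrophage sum, overlap skin migrated libraries on the neutrophil axis (16.19 to 25.53 against 18.68 to 35.41 CPM), and joint steady-state libraries carry 645.4 to 1199 CPM of neutrophil markers.

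Over the 18 libraries, which differ in site, depth and marker levels together, the genes whose log2 levels followed each of the 9 most closely, among 14380 protein-coding genes, are given as a description. They were Clec4e and Cd14 for Nlrp3 (both r = 0.993), Tgfbi and Pla2g7 for Mefv (both 0.993), Plin2 (0.994) and Slc16a3 (0.992) for Casp4, and Evi2a and Gm49342 for Casp1 (both 0.985). Nlrp1b was followed by Zfhx3 (0.991), Nlrc4 by Lyl1 (0.971) and Mgrn1 (0.97), and Aim2 by Med7 (0.945) and Ubp1 (0.942). Pycard was nearest to Vps26c (0.959) and Rps6ka1 (0.911), and Gsdmd to Psmd10 (0.962) and Spop (0.96). Among the 9 genes, Mefv and Casp4 were closest (r = 0.983), and over the 12 lymph node libraries Aim2 and Gsdmd had r = -0.893.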

How the data were processed

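RNA-Seq of 18 libraries was analysed. The authors trimmed reads (Trim Galore), aligned them to mm10 with TopHat2 and counted them per gene with HTSeq, and the deposited values are raw counts per Ensembl gene. The 5 summary rows of the counter were left out. Genes were matched to GENCODE M21 annotation (49326 of 49585). Replicates are separate pools or samples as labelled. Where no source says they came from separate animals, p-values measure only the spread between these libraries.

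Genes were tested with edgeR 4.0.16 (R 4.3.3) by its quasi-likelihood test on TMM-scaled counts after filterByExpr (minimum count 10), in 2 fits of 12 libraries, with Benjamini-Hochberg adjustment over 16777 and 17107 genes. Genes passed at adjusted p below 0.05 and a log2 fold change above 1 in size. CPM are TMM-scaled over 18 libraries. A count of 3 corresponds to 0.0616 to 0.18 CPM, for counting error only. The tests were tested on simulated data. Alternatives were DESeq2 1.42.0, size factors, no filter, thinned counts, other sets of libraries, a replicate block, a stricter threshold and leaving out each library. The 9 genes are always named, with up to 4 from a pathway list and the 2 most similar genes each. A few single-gene results under this rule are not reported here. Members and lists were chosen with earlier results of these data known.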

Additional observations from a re-analysis of the deposited data

Results flagged for a closer look

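In the lymph node, the change from steady-state to migrated cells differed between joint and skin for 2 of the 9 genes. A test of the difference itself was used. For Nlrp3 the difference, joint minus skin, was -4.13 on the log2 scale (SE 0.916, edgeR adjusted p = 0.0133), and for Mefv it was -4.15 (SE 0.514, edgeR adjusted p = 0.000367). Of all genes tested, 6.11% passed this test. Between the migrated groups neither gene passed (Nlrp3 0.137, Mefv -0.225, joint minus skin). Between the steady-state groups they differed by 4.26 and 3.92. Both genes were lowest in all 3 skin steady-state libraries. The joint and skin steady-state libraries also differed in title (PBS and Naive) and in summed neutrophil markers (645.4 to 1199 against 16.19 to 25.53 CPM). Site and handling cannot be told apart here, and handling may include the T cell transfer and immunization of PBS-challenged mice. The skin migrated and skin steady-state libraries also differed in depth.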

How the results depend on the processing

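At an adjusted p of 0.001 the genes called numbered 3586 (joint migrated against nonmigrated), 3508 (skin), 511 (nonmigrated, joint against skin), 0 (migrated, joint against skin), 20 (site by migration), 2714 (joint against its steady state), 246 (between steady states) and 152 (site by inflammation), and 1 of the 9 genes was called in each of the last 2 and 4 in skin against its steady state, Nlrp3 being the gene lost in all 3. Nlrc4 between migrated groups was the 1 gene of the 9 called by DESeq2 (465 of all genes), without a filter (327), on 18 libraries (407) and on the compared groups only. Site by migration gave 1729 genes by DESeq2 and 1664 on 18 libraries, and site by inflammation 666 on 18 libraries. Without a filter 1 gene (Nlrp1b) was called between nonmigrated groups and 2 (Nlrc4 and Nlrp3) between joint migrated and steady state.

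Whether replicate numbers pair the samples is not given in the labels, and the values do not settle it. Within sites, correlations of deviations between nonmigrated and migrated libraries of the same number were 0.021 to 0.254. Of the 6 nonmigrated libraries 5, all but joint nonmigrated 1, were closest to the migrated library of their own number. The main fits used no pairing. With a replicate block 1 gene was called between nonmigrated and 1 between migrated groups, and 5747 and 5834 genes for migration in joint and skin. These uncalled values changed sign under the block: Mefv (-0.01) and Casp1 (-0.022) in site by migration and Nlrp3 (-0.02) between migrated groups.

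Leaving out each library in turn, the 9 genes gave 6 to 6 calls (joint migration), 6 to 7 (skin migration), 0 to 2 (nonmigrated), 0 to 2 (site by migration), 1 to 2 (joint against steady state), 4 to 5 (skin against steady state), and all genes 1745 to 3720 (nonmigrated), 58 to 171 (migrated), 582 to 2610 (site by migration) and 695 to 1240 (site by inflammation). Uncalled values that changed sign ranged, in site by migration, from -0.22 to 0.19 (Casp1), -0.38 to 0.062 (Gsdmd), -0.84 to 1.11 (Nlrp3), -0.31 to 0.45 (Mefv) and -0.085 to 0.54 (Nlrc4). Between migrated groups they ranged from -0.63 to 0.12 (Mefv), -1.05 to 0.91 (Nlrp3) and -0.13 to 0.14 (Casp4). Elsewhere they ranged from -0.22 to 0.12 (Gsdmd, joint migration), -0.076 to 0.28 (Gsdmd, skin migration), -0.32 to 0.088 (Casp1, nonmigrated), -0.21 to 0.14 (Gsdmd, nonmigrated), -0.37 to 0.36 (Mefv, joint against steady state), -0.27 to 0.10 (Nlrp1b, site by inflammation), -0.12 to 0.005 (Aim2, steady states) and -0.006 to 0.096 (Gsdmd, steady states). The cause was not tested. Thinning all libraries to the smallest total changed no call of the 9 genes.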
